A study of Mus musculus with 3 samples.

Results

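The cells described here carried both Spp1, which encodes the secreted phosphoprotein osteopontin, and Gpnmb, which encodes a type I membrane glycoprotein of lysosomes and the cell surface. They made up 100 of 14192 cells in the prefrontal cortex of 6-day-old mice. A cell was taken when both genes were above 0, when at least 1 of the myeloid genes Csf1r, Itgax and Lyz2 was above 0, when at most 1 of the border macrophage genes Pf4, Lyve1 and Mrc1 was above 0, and when at most 1 of the vascular and fibroblast genes Dcn, Cldn5 and Kcnj8 was above 0. The cells were very unevenly spread: library 1 held 17 of its 4775 cells, library 2 held 82 of 5134, and library 3 held 1 of 4283.

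All 3 libraries belong to a single group, of a strain and genotype that the labels do not give: prefrontal cortex of mice of both sexes that breathed the anaesthetic gas sevoflurane at roughly 3% on postnatal day 6 and were killed the same day. No unexposed group is labelled, so nothing below measures an effect of the anaesthetic. The labels call the libraries replicates without saying that they came from separate animals. Library was a block in the fit, so a shift shared by all cell populations of a library was taken out. The p-values measure only how differences between cell populations varied among these libraries, and that variation may be technical. The tissue is said to have been frozen and taken up in Trizol, and the step that gave single cells for the 10x Genomics Chromium libraries is not given in the sources used here.

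Microglia are the resident macrophages of the brain, and in the first postnatal weeks they engulf dying cells, synapses and surplus myelinating cells while still dividing. A microglial state that expresses Spp1, Gpnmb, Igf1, Itgax and Lag3, lowers the surface receptors of surveying microglia such as P2ry12 and Tmem119, and raises lysosomal and lipid-handling genes has been described in developing white matter and around lesions. Engulfed material is degraded in lysosomes, whose genes often carry a promoter element bound by transcription factors of the MiT/TFE family, among them Tfeb, Tfe3 and Mitf.

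Of the gene lists examined below, the lysosomal list had the most members higher in these cells, 27 of 52 tested, beside 5.25% of all genes. It was also the longest list, and larger parts of the phagocytic state list (24 of 29) and the glycolytic list (12 of 22) were higher. The 250 bases before the start of 3 of the lysosomal genes are shown, from RefSeq (GRCm38.p6), each 5′ to 3′ on the strand of the gene. These 3 were chosen because they held the most sites of the motif described next. Capitals mark TCACGTG, a core of the MiT/TFE element, or its reverse complement CACGTGA, and a run in which both overlap was counted as 1 site. Ctsd encodes the aspartic protease cathepsin D (chr7:142387828-142388077, minus strand), Gla the alpha-galactosidase of glycolipid breakdown (chrX:134601006-134601255, minus strand) and Lamp1 an abundant lysosomal membrane protein (chr8:13158911-13159160, plus strand).
Ctsd: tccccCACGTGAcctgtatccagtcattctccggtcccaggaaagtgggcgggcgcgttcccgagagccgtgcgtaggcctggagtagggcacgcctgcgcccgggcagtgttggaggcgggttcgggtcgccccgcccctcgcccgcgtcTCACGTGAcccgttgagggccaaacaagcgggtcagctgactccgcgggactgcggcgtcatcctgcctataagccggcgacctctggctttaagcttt
Gla: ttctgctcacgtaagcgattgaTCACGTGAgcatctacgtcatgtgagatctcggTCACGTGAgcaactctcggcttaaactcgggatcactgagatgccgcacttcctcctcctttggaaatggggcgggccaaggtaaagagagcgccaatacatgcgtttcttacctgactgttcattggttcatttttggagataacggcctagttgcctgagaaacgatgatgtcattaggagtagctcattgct
Lamp1: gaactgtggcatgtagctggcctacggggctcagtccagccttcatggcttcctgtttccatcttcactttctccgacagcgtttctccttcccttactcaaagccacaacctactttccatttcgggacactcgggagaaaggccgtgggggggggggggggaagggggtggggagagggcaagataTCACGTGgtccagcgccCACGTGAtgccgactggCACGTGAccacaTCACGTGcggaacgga
The Ctsd and Gla stretches held 2 sites each and the Lamp1 stretch held 4. Among all 32851 promoter windows of 300 bases in that table, 1237 (3.77%) held at least 1 site on either strand, and among the 8343 windows of the genes tested here 545 (6.53%) did. Of the 27 lysosomal list genes higher in these cells, 21 were matched to the table and 7 of those held a site. These were Atp6v1a, Ctsa, Ctsd, Gla, Glb1, Lamp1 and Plin2, the last of which encodes a coat protein of lipid droplets. Of 48 windows of all matched genes of the list 12 held a site (25%), and of 24 windows of its higher genes 7 did (29.2%). Over all genes, 6.76% of windows of higher genes and 6.97% of windows of lower genes held a site. Only 40 of the 52 lysosomal genes tested were matched, and these shares were not tested. A match describes the letters in the window and does not show that a factor was bound.

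Values are given as CPM: the corrected counts of each cell were scaled to the same total and averaged over the cells of a library. The 3 comparison populations were chosen from genes in the same way. Non-dividing microglia had Csf1r and all of C1qa, C1qb and C1qc, lacked the pair of Spp1 and Gpnmb, and had at most 1 of Mki67, Top2a, Cdk1, Cenpf and Birc5. Dividing microglia had at least 2 of those 5 division genes, and border macrophages had Csf1r and the C1q genes with at least 2 of Pf4, Lyve1 and Mrc1. They held 1133, 555 and 153 cells. The median corrected total per cell was 6623 in the Spp1 and Gpnmb cells and 5063 in non-dividing microglia, and the median number of detected genes was 2179.5 and 1807. The depth before the authors' correction is unknown, and no Spp1 and Gpnmb cell was called a doublet, against 287 of all 14192 cells. Of 14102 barcode sequences 90 occurred in 2 libraries, and 1 of the 100 cells carried such a barcode.

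The share of Spp1 and Gpnmb cells was 0.356% in library 1 (95% exact binomial interval 0.208% to 0.569%), 1.60% in library 2 (1.27% to 1.98%) and 0.0233% in library 3 (0.000591% to 0.130%). None of these intervals overlaps another, and the mean was 0.659% ± 0.829 (SD, n = 3 libraries). The intervals cover counting error only. As a share of the 4 myeloid populations the values were 3.59%, 11.6% and 0.132%. Non-dividing microglia made up 270, 364 and 499 cells of libraries 1, 2 and 3, dividing microglia 156, 219 and 180, and border macrophages 31, 43 and 79. The share of dividing microglia was also highest in library 2, at 3.27%, 4.27% and 4.20%, while the other populations had most cells in library 3. Nothing in the labels tells the libraries apart by condition.

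**Figure D1:**
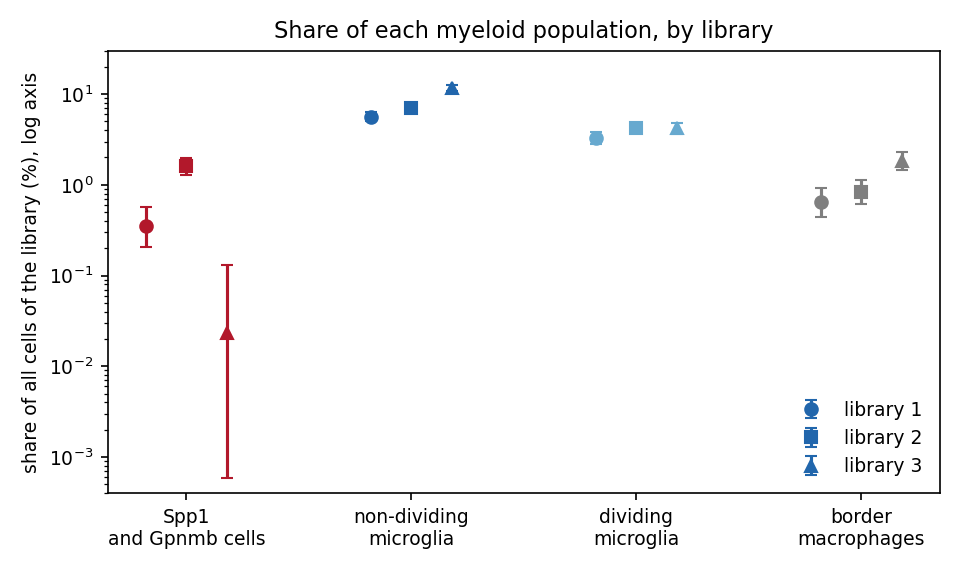
Share of all cells of each library (percent, log axis) held by the Spp1 and Gpnmb cells and by 3 comparison populations, with exact 95% binomial intervals as bars. The Spp1 and Gpnmb cells range from 0.0233% in library 3 to 1.60% in library 2, so that the SD over libraries (0.829) exceeds the mean (0.659%), while the means over libraries were 8.13% ± 3.13 (SD) for non-dividing microglia, 3.91% ± 0.559 for dividing microglia and 1.11% ± 0.643 for border macrophages.

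Spp1 was also found at low level in other cells, most often in library 2. Among cells outside the 4 myeloid populations it was above 0 in 3.60%, 15.6% and 0.766% of cells in libraries 1, 2 and 3. In astrocytes, chosen by their own marker genes and not a usual source of Spp1, the shares were 2.90%, 17.5% and 0.151% at median detected genes of 2832, 2683 and 2823. In non-dividing microglia they were 8.52%, 20.1% and 5.41% at 1925, 1820 and 1705 genes. Gpnmb was rarer, at 0.669%, 1.76% and 0.605% of astrocytes. Library 2 therefore led both in Spp1 and Gpnmb cells and in Spp1 detected elsewhere, and the part of the latter in the former was not tested. A threshold of 2 or more counts of both genes kept 81 of the 100 cells, 14 in library 1, 67 in library 2 and none in library 3.

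Both genes were above 0 in 133 cells, 24, 108 and 1 by library, and the rule kept 100 of them. Of these, 15 lacked Csf1r, Itgax and Lyz2, and their median Spp1 was 148.5 CPM against 33069 CPM in the cells kept. Another 17 cells had 2 or more border macrophage genes, and these averaged 48298 CPM of Spp1, 1441 CPM of Igf1, 1091 CPM of Lag3 and 393 CPM of P2ry12, with Lyve1 at 0. The cells kept averaged 40247 CPM of Spp1, 1241 CPM of Igf1, 1274 CPM of Lag3 and 490.3 CPM of P2ry12. The limit on border macrophage genes thus left out cells that had high Spp1, Igf1 and Lag3 and low P2ry12 too, and 1 further cell failed the limit on vascular genes. At the threshold itself, 6 of the cells kept had a single corrected count of Spp1 and 19 a single count of Gpnmb. Among the 100, Mrc1 was above 0 in 32, Pf4 in 12 and Lyve1 in none, and 93 carried Csf1r with all 3 C1q genes.

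The genes that chose the cells are given as a description, with no test. Spp1 averaged 33858 CPM in the 17 cells of library 1 and 42058 CPM in the 82 of library 2, against 87.6, 363 and 27.4 CPM in non-dividing microglia of libraries 1, 2 and 3. Gpnmb averaged 2447 and 2101 CPM against 2.67, 4.50 and 0 CPM. Itgax, the integrin CD11c, averaged 335 and 409 CPM against 5.04, 11.4 and 0.766 CPM. Lysozyme, Lyz2, averaged 4829 and 4132 CPM against 531, 507 and 551 CPM. Csf1r, the receptor on whose signal microglia depend for survival, was lower, at 1366 and 1317 CPM against 2624, 2342 and 2765 CPM; the comparison cells were required to have it and these cells were not. The C1q genes, which encode the first complement component, differed little, with C1qc at 6403 and 6058 CPM against 5834, 5534 and 6129 CPM.

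The single cell of library 3 was of another kind by its genes. It had 2 corrected counts of Spp1 (379 CPM) and 1 of Gpnmb (189 CPM), no Igf1 and no Itgax, and P2ry12 at 7197 CPM. Lag3 stood at 189 CPM and Apoe at 11174 CPM. It is counted in the share above and in the descriptions of single cells below, and enters none of the limma comparisons, in which these cells have values from libraries 1 and 2 only.

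The label of a phagocytic microglial state was held against its markers within single cells. Of Igf1, Itgax and Lag3, 73 of the 100 cells had all 3, 18 had 2, 6 had 1 and 3 had none. Spp1 spanned 162 to 113559 CPM in the cells of library 1, with a median of 22387 CPM, and 145 to 182078 CPM in library 2, with a median of 37033 CPM. P2ry12, the ADP receptor of surveying microglia, was below the median of the non-dividing microglia of the same library in 17 of 17 cells and in 79 of 82. Tmem119 was below it in 17 of 17 and 81 of 82. Ctsb, the protease cathepsin B, was above it in 17 of 17 and 75 of 82. The microglial identity gene Fcrls was abundant, at 2771 and 2898 CPM in libraries 1 and 2. Spp1 and Itgax were part of the rule, and Igf1 and Lag3 had been named for these cells from the same data, so their presence does not test the label.

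**Figure D2:**
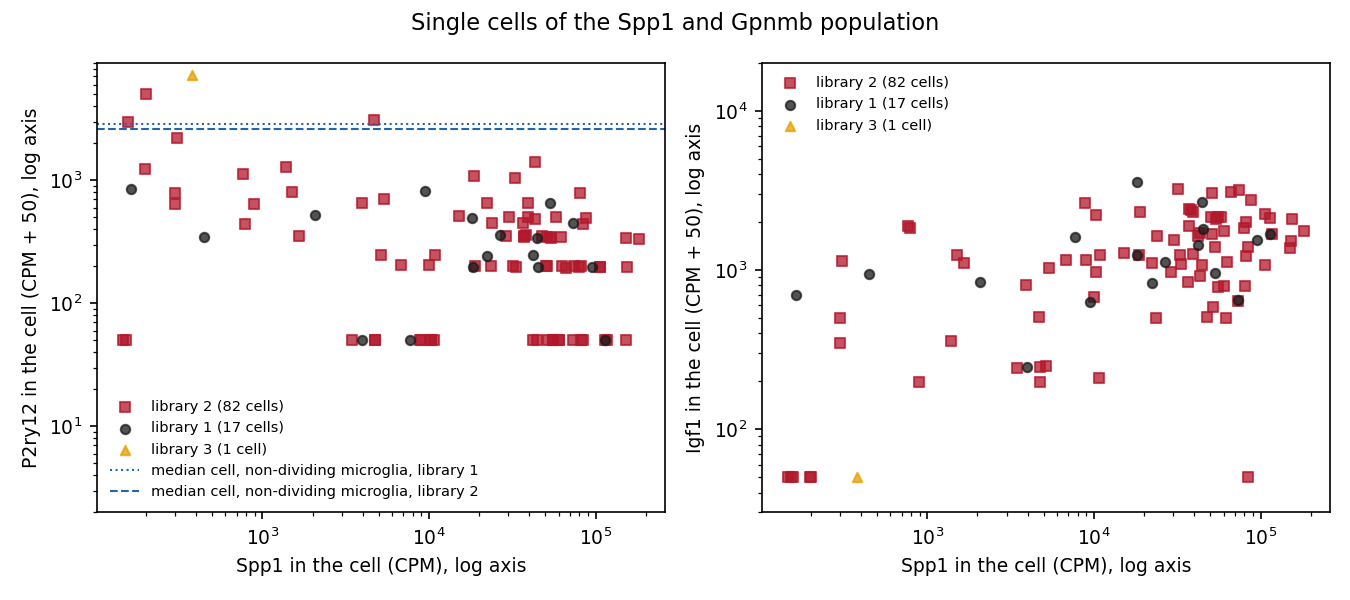
Each point is 1 of the 100 cells; the horizontal axis is its Spp1 level (CPM, log axis) and the vertical axis its P2ry12 (left) or Igf1 (right) level with 50 CPM added (log axis), with lines at the median non-dividing microglial cell of libraries 1 and 2. Nearly all cells lie below the P2ry12 lines, and the cells with low Igf1 and high P2ry12 gather at the low end of Spp1.

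Cells with little Spp1 differed from the others in some of these genes. The 15 cells with fewer than 10 corrected counts of Spp1, 2 of them in library 1, 12 in library 2 and the 1 of library 3, averaged 496 CPM of Igf1 and 1615 CPM of P2ry12. The 85 cells with 10 or more averaged 1373 CPM of Igf1 and 292 CPM of P2ry12. Without the cell of library 3, P2ry12 in the low-Spp1 cells averaged 554 CPM in library 1 and 1327 CPM in library 2, against 276 and 295 CPM in the others. Apoe was not lower in them, at 43198 CPM against 38261 CPM, and in library 1 the 2 such cells had more Lag3 than the other 15, at 2108 CPM against 1261 CPM. All 3 cells with none of Igf1, Itgax and Lag3 were among the 15. Microglia, dividing or not, that had Spp1 without Gpnmb were looked at in the same way. Those with 10 or more counts of Spp1, 6 in library 1 and 12 in library 2, had Lag3 at 1386 and 1390.4 CPM, Igf1 at 603 and 682 CPM and P2ry12 at 842 and 1331 CPM. Microglia with neither gene had Igf1 at 12.1, 18.9 and 37.6 CPM, Lag3 at 120.3, 128 and 137 CPM and P2ry12 at 2995, 2813 and 2806 CPM in libraries 1, 2 and 3. Cells with much Spp1 and no Gpnmb count thus lay between the others in Igf1 and P2ry12, while their Lag3 was close to that of the Spp1 and Gpnmb cells. These are descriptions of cells from the same libraries, with no test.

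Against non-dividing microglia, 429 of 8169 genes tested were higher in the Spp1 and Gpnmb cells (5.25%) and 1642 were lower (20.1%), 25.4% in either direction, by limma at an adjusted p of 0.05. The genes that chose the populations are left out of these counts. A gene was tested when its mean over the values of all 4 populations, the Spp1 and Gpnmb cells included, reached 10 CPM. A gene near 0 elsewhere could therefore enter the test through its level in these cells, which favours genes that are higher in them. The median gene lay at -0.31 on the log2 scale; centring the values on the median gene moved it to -0.08 and gave 656 higher (8.03%) and 872 lower (10.7%), 18.7% in either direction. Without rescaling each cell, 622 of 8318 were higher (7.48%) and 1001 lower, 19.5% in either direction. Library 1 carried many of the calls with its 17 cells: without it, and with library 2 alone assumed to vary like the other populations, 120 of 8271 genes were higher (1.45%) and 362 lower (4.38%), 5.83% in either direction, of which 112 and 348 were among those above. The fit without library 1 drops it from every population and leaves 2 residual degrees of freedom in place of 5. No list below was tested against other genes, and each list count is to be read beside the shares over all genes. All folds below are log2 differences of means with 10 CPM added, which draws weak genes toward 0.

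**Figure D3:**
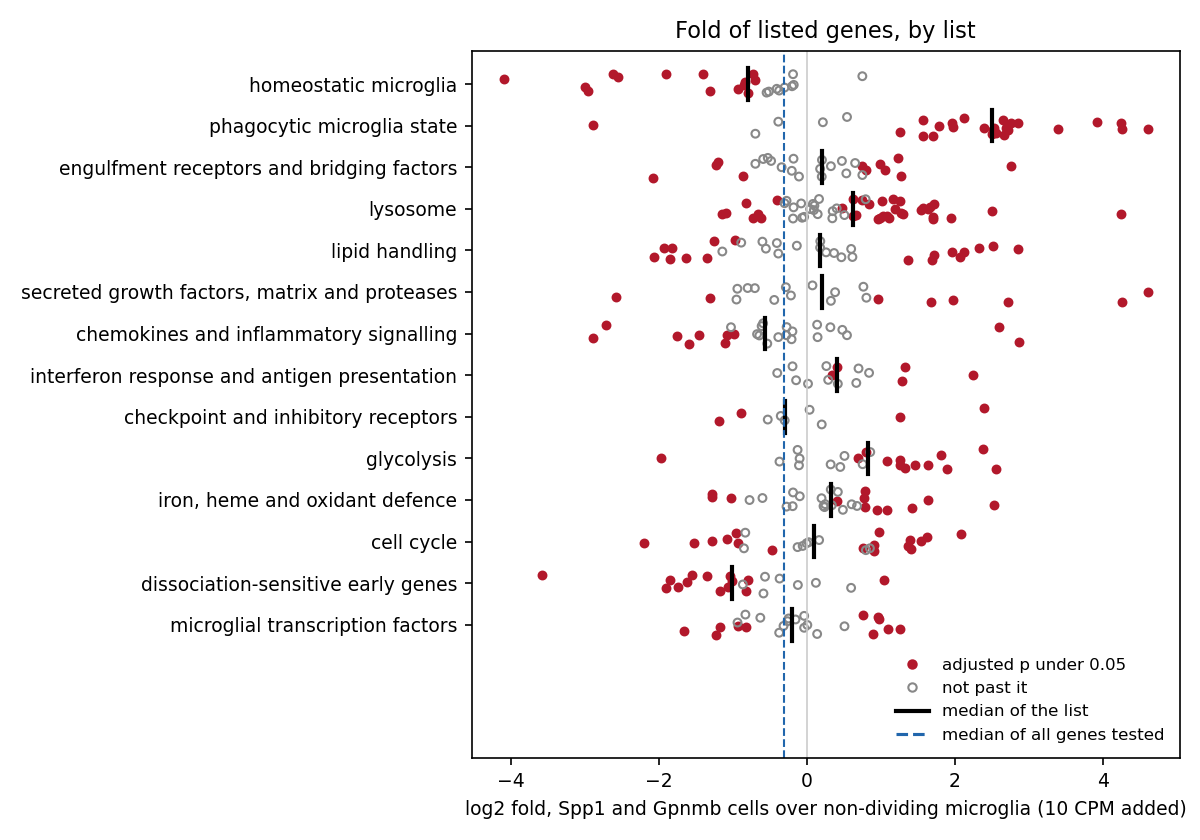
Log2 fold of each tested gene of 14 lists, Spp1 and Gpnmb cells over non-dividing microglia, with filled points past an adjusted p of 0.05, a bar at each list's median and a dashed line at the median of all genes tested (-0.31). The list medians run from -1.01 for early genes to 2.50 for the phagocytic state.

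Genes known for the phagocytic state were higher almost throughout: 24 of 29 tested were higher and 1, Ccl4, was lower, with a median log2 fold of 2.50 beside -0.31 over all genes. The list was drawn up with the state in mind, so its count is a check of the label and not separate evidence. Centred or not rescaled values gave the same 24 and 1, and without library 1 the counts were 11 and 1. Igf1, the growth factor that supports developing neurons and oligodendrocytes, averaged 1273 CPM in library 1 and 1250.0 CPM in library 2, against 39.1, 67.8 and 42.0 CPM in non-dividing microglia. That is a log2 fold of 4.60 ± 0.28 (SE), and the library means of the populations do not overlap. Igf1 was above 0 in 92.7% of the library 2 cells against 9.62% of the non-dividing microglia there. Lag3, an inhibitory receptor that binds MHC class II, averaged 1360.4 and 1269 CPM against 180.0, 218 and 152 CPM. Its log2 fold of 2.39 ± 0.58 (SE) had an adjusted p of 0.0115 in limma, and 0.281 without library 1. Igf1 and Lag3 had been named as markers of these cells from the same data, so their folds describe and do not test the label.

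Galectins, annexins and secreted factors were among the highest of the rest. Lgals3, which binds sugars of damaged lysosomes and cell surfaces, averaged 356 and 331 CPM against 1.32, 19.3 and 5.17 CPM, a log2 fold of 4.25 ± 0.64 (SE; limma, adjusted p = 0.000831). It was above 0 in 8 of 17 and 46 of 82 cells, so about as many cells lacked it as had it. Without library 1 the adjusted p of Lgals3 was 0.0723. Lgals1, a galectin of similar binding, averaged 848 and 749.6 CPM against 62.2, 77.3 and 82.4 CPM (limma, adjusted p = 5.87e-06). Csf1, a ligand of Csf1r, averaged 268 and 200.4 CPM against 21.8, 23.2 and 16.2 CPM (limma, adjusted p = 0.000986; 0.0821 without library 1). Anxa2, a phospholipid-binding annexin, averaged 183 and 211 CPM against 14.8, 18.0 and 21.5 CPM. Of 20 secreted factors, matrix genes and proteases tested, 6 were higher and 2 lower, with a median of 0.20. The shares over all genes were 5.25% and 20.1%. Igfbp4, a binding protein of insulin-like growth factors, was one of the 2 lower, at 38.5 and 49.3 CPM against 375, 309 and 271 CPM (limma, adjusted p = 5.91e-05), while Sparc, a matrix glycoprotein, was the other. Outside the pathway lists, 4 more genes were among the 10 largest higher folds: Baiap2l2 (log2 fold 3.13), the complement component C2 (3.01), the folate receptor Folr2 (2.99) and the secreted-pathway kinase Fam20c (2.87). Skil, a repressor of TGF-beta signalling, was among the 10 largest lower folds, at 0 and 40.8 CPM against 124, 121 and 106 CPM.

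**Figure D4:**
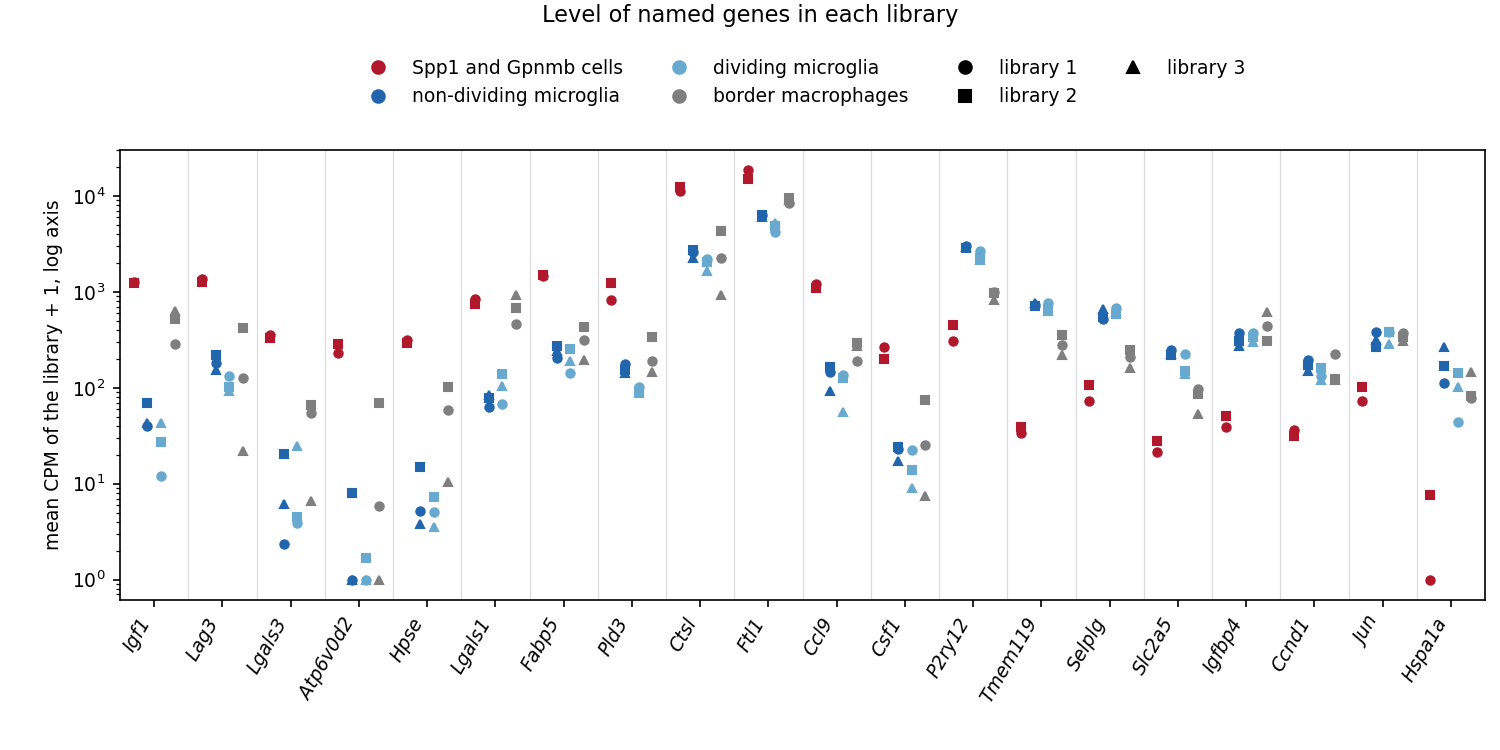
Mean CPM plus 1 (log axis) of 20 named genes, 1 point per library (circle, square and triangle for libraries 1, 2 and 3) in the Spp1 and Gpnmb cells and 3 comparison populations; the single cell of library 3 is not drawn. Both libraries of the Spp1 and Gpnmb cells lie above every non-dividing microglial library for Igf1 through Csf1 and below every one for P2ry12 through Hspa1a.

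Genes of surveying microglia were lower, unevenly, beside 5.25% higher and 20.1% lower over all genes. Of 23 tested, 14 were lower and none higher, with a median of -0.79; centred values gave 10 lower and 1 higher, Trem2, and values not rescaled gave 11 and 1. Tmem119, a surface protein specific to microglia in the brain, averaged 32.5 and 38.3 CPM against 722, 704 and 759 CPM, a log2 fold of -4.09 ± 0.18 (SE; limma, adjusted p = 1.71e-07). P2ry12 averaged 309 and 446 CPM against 3045, 2857 and 2939.7 CPM, a mean 7.81 times lower (limma, adjusted p = 4.7e-07). For both genes every library of the Spp1 and Gpnmb cells lay below every library of the comparison, and the calls held without library 1. Slc2a5, a fructose transporter, averaged 20.3 and 27.1 CPM against 246, 218 and 222 CPM. Selplg, a ligand of selectins, averaged 71.4 and 105 CPM against 526, 549 and 659.6 CPM. Smaller differences were found for Siglech (log2 fold -1.90) and the fractalkine receptor Cx3cr1 (-0.73), whose call was lost without library 1 (limma, adjusted p = 0.124) and on centred values (0.0804). Some identity genes did not pass: Fcrls had a log2 fold of -0.20 ± 0.13 (SE), Gpr34 of -0.41 ± 0.21 and the transcription factor Sall1 of -0.38 ± 0.34. The differences of Tmem119, P2ry12, Slc2a5 and Selplg were several times larger than those of Fcrls, Gpr34 and Sall1. The former were named for their large folds and the latter as genes that did not pass. The gap between them follows from that choice and is no separate result.

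Lysosomal genes were mostly higher, beside 5.25% higher and 20.1% lower over all genes. Of 52 tested, 27 were higher and 7 lower, with a median of 0.63; the 7 lower did not pass on centred values, which gave 28 higher and 0 lower, or on values not rescaled, which gave 30 and 0. Without library 1 there were 13 higher and 0 lower. The most abundant were proteases. Ctsd averaged 18353 and 18362 CPM against 5288, 5026 and 4409 CPM, a log2 fold of 1.66 ± 0.32 (SE; limma, adjusted p = 0.00344). Ctsb averaged 16603 and 16802 CPM against 5264, 4922 and 4154 CPM (log2 fold 1.64). Ctsl, cathepsin L, averaged 11179 and 12488 CPM against 2634, 2759 and 2282 CPM (limma, adjusted p = 0.00123; 0.105 without library 1). In all 3 both libraries lay above every comparison library, and without library 1 the call of Ctsd was lost as well (limma, adjusted p = 0.157).

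The largest lysosomal fold belonged to a proton pump subunit. Atp6v0d2, an isoform of the vacuolar ATPase known from osteoclasts, averaged 232 and 285 CPM against 0, 7.04 and 0 CPM, a log2 fold of 4.24 ± 0.52 (SE; limma, adjusted p = 0.000254). It was above 0 in 9 of 17 and 47 of 82 cells. Large differences were also found for other enzymes: Pld3, a lysosomal nuclease, at 828 and 1228 CPM against 175, 151 and 142 CPM, and Hpse, the heparanase that cuts heparan sulfate, at 312 and 290.1 CPM against 4.23, 13.8 and 2.81 CPM. Gla, whose promoter is shown above, averaged 44.5 and 56.5 CPM against 8.58, 5.67 and 6.26 CPM, and Lamp1, with 4 sites, averaged 2829 and 2914 CPM against 2027, 1936 and 1909 CPM. Both were lost without library 1 (limma, adjusted p = 0.0762 and 0.206). Legumain, Lgmn, an asparaginyl protease, went the other way at 4948 and 4934 CPM against 7452, 6821 and 7213 CPM, a call lost on centred values (limma, adjusted p = 0.159) and without library 1 (0.153).

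Receptors for engulfment were mixed, beside 5.25% higher and 20.1% lower over all genes. Of 27 tested, 7 were higher and 4 lower, with a median of 0.20; centred values and values not rescaled each gave 11 higher and 4 lower. Tyrobp, the signalling adaptor of Trem2, averaged 6292 and 6179 CPM against 2574, 2639 and 2698 CPM (log2 fold 1.23). Trem2, a receptor for lipids and apoptotic cells, averaged 2506 and 2599 CPM against 1362, 1346 and 1461 CPM, with an adjusted p of 0.0684 in limma, and of 0.0439 on centred values. Colec12, a scavenger receptor, averaged 89.8 and 70.2 CPM against 0.664, 7.48 and 5.20 CPM. Stab1, a receptor for phosphatidylserine, averaged 239 and 197 CPM against 101, 83.9 and 83.0 CPM. The calls for Colec12 and Stab1 were lost without library 1, with adjusted p of 0.0511 and 0.0844 in limma. Elmo1, a scaffold of the Rac pathway used in engulfment, was lower, at 53.9 and 35.6 CPM against 222, 203 and 188 CPM. Mertk, a receptor tyrosine kinase for apoptotic cells, averaged 73.9 and 85.2 CPM against 68.7, 63.2 and 63.4 CPM and did not pass.

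Of 31 lipid genes tested, 9 were higher and 8 lower, beside 5.25% higher and 20.1% lower over all genes, with a median of 0.18 (10 and 7 on centred values, and 5 and 3 without library 1). Genes of fatty acid release, binding and ester storage were among those higher. Apoe, the main apolipoprotein of the brain, averaged 45403 and 38014 CPM against 8919, 10014 and 8511 CPM, a log2 fold of 2.11 ± 0.13 (SE; limma, adjusted p = 2.64e-06). Lipoprotein lipase, Lpl, averaged 1557 and 1215 CPM against 323, 291 and 226 CPM. Fabp5, a fatty acid binding protein, averaged 1473 and 1519 CPM against 202, 272 and 241 CPM, and Fabp3, of the same family, averaged 155 and 243 CPM against 11.6, 21.5 and 13.7 CPM. Soat1, which esterifies cholesterol, averaged 187 and 167 CPM against 53.3, 44.6 and 38.7 CPM. Nceh1, which hydrolyses cholesterol esters, and Plin2, a coat protein of lipid droplets, were higher as well (log2 folds 2.32 and 1.72). Without library 1 the calls of Lpl and Fabp3 were lost (limma, adjusted p = 0.102 and 0.0579).

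Of the 8 lipid genes that were lower, Hmgcs1, Idi1, Sqle and Srebf2 serve cholesterol synthesis, a grouping made after the values were seen. Hmgcs1, an early enzyme of the pathway, averaged 20.3 and 84.5 CPM against 187, 215 and 145 CPM (log2 fold -1.86). Sqle averaged 0 and 30.1 CPM against 71.1, 88.9 and 44.8 CPM. Srebf2, the transcription factor of the pathway, averaged 0 and 18.6 CPM against 52.5, 50.2 and 39.3 CPM. Msmo1, a later enzyme of the pathway that was on no list, and one of the 10 largest lower folds, averaged 0 and 80.6 CPM against 180.2, 179.9 and 125 CPM. A value of 0 in the 17 cells of library 1 allows up to 29.0 CPM, 3 counts of their total, and the fitted fold of such a gene depends on the 10 CPM added. Without library 1 the calls of Hmgcs1, Idi1, Sqle and Srebf2 were lost (limma, adjusted p = 0.0992, 0.0944, 0.0824 and 0.0775).

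Of 26 chemokine and inflammatory genes tested, 2 were higher and 8 lower, beside 5.25% higher and 20.1% lower over all genes, with a median of -0.56. Centred values gave 2 and 5, beside 8.03% and 10.7%, and no test of the list against other genes was made. Ccl9 and Ccl6, CC chemokines of macrophages, were the 2 higher. Ccl9 averaged 1222 and 1093 CPM against 147, 166 and 91.6 CPM (limma, adjusted p = 5.68e-05), and Ccl6 averaged 912 and 952 CPM against 190.3, 146 and 111 CPM. Ccl4, another CC chemokine, averaged 0 and 41.0 CPM against 153, 191 and 121 CPM. Its partner Ccl3 averaged 206 and 127 CPM against 209.6, 208 and 144 CPM and did not pass. Nfkbia, the feedback inhibitor of NF-kB, and Ptgs1, a cyclooxygenase, were also lower (log2 folds -1.59 and -1.76).

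Some interferon and antigen presentation genes were higher, beside 5.25% higher and 20.1% lower over all genes. Of 15 tested, 5 were higher and none lower, with a median of 0.41 (7 and 0 on centred values, 1 and 0 without library 1). Ifitm2, an interferon-induced membrane protein, averaged 301 and 260.4 CPM against 61.3, 69.5 and 46.5 CPM. Cd86, a costimulatory ligand for T cells, averaged 409.5 and 317 CPM against 136, 134 and 133 CPM. H2-Ab1, an MHC class II chain, stayed low in both, at 29.0 and 50.8 CPM against 9.13, 9.33 and 10.4 CPM, while B2m, the light chain of MHC class I, differed by a log2 fold of 0.34. The interferon response gene Isg15 (log2 fold 0.70) did not pass. Without library 1 the calls of Ifitm2, Cd86, H2-Ab1, B2m and H2-D1 were all lost. The 1 gene called there, H2-T23, had not passed with all libraries (log2 fold 0.67). Without library 2 the calls of H2-Ab1, B2m and H2-D1 were lost too. With dividing cells taken out, H2-Ab1 had an adjusted p of 0.0738. Among 9 checkpoint and inhibitory receptors, Lag3 and Cd200r1 were higher and Vsir and Siglece lower; the call for Siglece was lost on centred values (limma, adjusted p = 0.0788) and without library 1 (0.269), as were those of Vsir without library 1 (0.0762) and Cd200r1 without library 2 (0.128).

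Of 22 glycolytic genes tested, 12 were higher, 1 was lower and 9 did not pass, with a median of 0.83 (14 and 1 on centred values, 6 and 0 without library 1). The shares over all genes were 5.25% higher and 20.1% lower. Triosephosphate isomerase, Tpi1, averaged 707 and 632 CPM against 156, 173 and 161 CPM. Aldoa, an aldolase, averaged 1362 and 1096 CPM against 352, 398 and 384 CPM. Slc16a3, the exporter of lactate, averaged 155 and 182 CPM against 22.2, 21.2 and 19.4 CPM (limma, adjusted p = 0.00168; 0.0869 without library 1). Bnip3, a mitophagy receptor induced in low oxygen, had the largest fold of the list, at 256 and 295 CPM against 40.6, 42.8 and 27.3 CPM (log2 fold 2.56). Aldoc, the aldolase of astrocytes, was the 1 lower, and its call was lost without library 1 (limma, adjusted p = 0.0517).

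Iron and oxidant defence genes gave 9 higher and 3 lower of 28, with a median of 0.33 (11 and 1 on centred values, 3 and 0 without library 1). The shares over all genes were 5.25% higher and 20.1% lower. Ftl1, the ferritin light chain, averaged 18503 and 14968 CPM against 6387, 6363 and 6063 CPM. It has near-identical pseudogenes, so its count is uncertain. Hmox1, the haem-degrading oxygenase, averaged 213 and 190.0 CPM against 70.9, 58.0 and 58.3 CPM. Gpx3, a secreted glutathione peroxidase, averaged 857 and 740.2 CPM against 131, 135 and 85.1 CPM. Without library 1 the call of Gpx3 was lost (limma, adjusted p = 0.0511). Haemoglobin and other erythroid transcripts, a sign of RNA from red cells, summed to 413 and 9536 CPM in these cells and to 5788, 10245 and 6237 CPM in non-dividing microglia, and their part in these results was not tested. The glutathione synthesis genes Gclc and Gclm were both at 0 in library 1 and 12.7 and 23.2 CPM in library 2; they were lower with it and not without it (limma, adjusted p = 0.163 and 0.485).

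Early and stress genes, which respond to tissue dissociation, were lower in these cells, beside 5.25% higher and 20.1% lower over all genes. Of 21 tested, 13 were lower and 1 higher, with a median of -1.01 (12 and 1 on centred values, 8 and 0 without library 1). Jun averaged 72.2 and 100.1 CPM against 386, 264 and 315 CPM (limma, adjusted p = 7.35e-05). Egr1 averaged 0 and 17.9 CPM against 53.2, 52.7 and 53.8 CPM. Hspa1a, an inducible heat shock protein, averaged 0 and 6.69 CPM against 110.1, 169 and 264 CPM; it is nearly identical to Hspa1b, so the split between them is uncertain. Cd83, an activation marker, was the 1 higher, at 189.6 and 265 CPM against 92.4, 101 and 90.3 CPM. The calls of Egr1 and Cd83 were lost without library 1 (limma, adjusted p = 0.0517 and 0.223). How the cells were handled is not given, and the part of handling in these differences was not tested.

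Transcription factors gave 6 higher and 5 lower of 24, with a median of -0.20. Over all genes 5.25% were higher and 20.1% lower, so the part that was lower was near that of all genes. Mitf, of the MiT/TFE family, averaged 35.5 and 64.4 CPM against 13.8, 14.8 and 10.2 CPM (limma, adjusted p = 0.00605), and its relative Tfec averaged 17.5 and 25.8 CPM against 6.16, 4.51 and 4.55 CPM. Of their relatives, Tfeb did not pass (log2 fold -0.04) and Tfe3 was lower (-0.83), a call lost on centred values (limma, adjusted p = 0.0949), without library 1 (0.0989) and without library 2 (0.0564). Without library 2 the calls of Mitf and Tfec were lost (limma, adjusted p = 0.0645 and 0.102), and without library 1 that of Tfec (0.0605). Mef2a, a factor active in surveying microglia, averaged 86.0 and 80.2 CPM against 289, 270.3 and 269 CPM, and Mef2c, its relative, was lower by less (log2 fold -0.93). Etv5, an ETS factor, averaged 17.4 and 15.8 CPM against 58.8, 47.5 and 52.1 CPM, with an adjusted p of 0.0709 in limma without library 1.

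Part of the cells were dividing. Among them 4 of 17 in library 1 and 17 of 82 in library 2, 23.5% and 20.7%, had 2 or more of the 5 division genes, against 36.6% and 37.6% of the other microglia there. Against non-dividing microglia, which were chosen to lack those genes, 10 of 26 other cell cycle genes were higher and 7 lower, with a median of 0.09. The shares over all genes were 5.25% and 20.1%. Mitotic genes were on the higher side, as Ccna2, a cyclin of S and G2 phase, at 34.6 and 32.5 CPM against 3.23, 2.21 and 8.07 CPM. Ccnd1, the G1 cyclin, and replication helicase genes were on the lower side: Ccnd1 averaged 35.1 and 30.3 CPM against 194, 174 and 150.2 CPM, and Mcm2 averaged 18.0 and 27.5 CPM against 90.9, 78.9 and 52.0 CPM. With the dividing cells taken out, Ube2c, a mitotic ubiquitin enzyme, turned from a log2 fold of 2.08 to -0.81, and Ccna2 no longer passed (log2 fold 0.21; limma, adjusted p = 0.639). The calls of Ccna2, Ube2c and Mcm2 were lost without library 1 (limma, adjusted p = 0.0532, 0.0517 and 0.0936).

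Against dividing microglia, 489 of 8169 genes were higher (5.99%) and 2492 lower (30.5%), 36.5% in either direction, with a median gene at -0.43; centred values gave 967 higher and 1022 lower (24.3%), values not rescaled gave 595 higher (7.15%) and 2097 lower, and without library 1 there were 224 higher (2.71%) and 991 lower. Of the 26 cell cycle genes, none was higher and 25 were lower, with a median of -1.79. Dividing microglia were chosen to have at least 2 of 5 division genes, as 22 of the 100 Spp1 and Gpnmb cells did. The cell cycle count was thus largely set by that choice and is not separate evidence. The phagocytic state list again gave 24 higher and 1 lower of 29, and the lysosomal list gave 33 higher and 5 lower of 52. Tmem119 (log2 fold -4.01) and P2ry12 (-2.68) were lower here as well. Both comparisons share the same 2 libraries of Spp1 and Gpnmb cells, so the second repeats the first in part.

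Border macrophages, the macrophages of meninges and vessels, gave few calls that held without library 1. Of 8169 genes 259 were higher in the Spp1 and Gpnmb cells (3.17%) and 1423 lower (17.4%), 20.6% in either direction, with a median gene at -0.33; centred values gave 573 (7.01%) and 480 (5.88%), and values not rescaled 321 (3.86%) and 1147. These calls depended on library 1: without it none was higher and 6 were lower of 8271 (0.0725%), with 1959 at an unadjusted p under 0.05. That fit also lost the library 1 border macrophages and had 2 residual degrees of freedom in place of 5. A fit with at least 20 cells per population and library removed the library 1 value of the Spp1 and Gpnmb cells and kept that of the border macrophages. Its count is given at the end. How the loss divides between these changes was not tested. Border macrophages with both Spp1 and Gpnmb, 3 in library 1 and 14 in library 2, carry both genes by choice. Leaving them out, an alternative added after the data were seen, gave 375 higher and 1791 lower. The phagocytic state list gave 21 higher and 3 lower of 29, the lysosomal list 23 and 4 of 52, and the glycolytic list 14 and 1 of 22. Without library 1 none of these genes was called.

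Single genes placed border macrophages differently. These macrophages included cells with both Spp1 and Gpnmb: 3 of 31 in library 1, 14 of 43 in library 2 and 0 of 79 in library 3. Those 17 cells averaged 1441 CPM of Igf1 and 50346 CPM of Apoe. Their part in the border macrophage levels that follow was not tested. Igf1 averaged 283, 518 and 638 CPM in border macrophages of libraries 1, 2 and 3, between non-dividing microglia and the Spp1 and Gpnmb cells (log2 fold 1.61; limma, adjusted p = 0.00334). Apoe averaged 39688, 35260.3 and 25993 CPM there and did not pass (log2 fold 0.26; limma, adjusted p = 0.177). Lgals1 averaged 461, 684 and 920.0 CPM and did not pass either. Fabp5 averaged 318, 427 and 195 CPM and was higher in the Spp1 and Gpnmb cells (log2 fold 2.19). Ctsl averaged 2251, 4281 and 925 CPM there (log2 fold 2.24). Stab1, at 498, 331 and 704 CPM, was lower in the Spp1 and Gpnmb cells (log2 fold -1.06), and so was P2ry12 (-1.34), already low in border macrophages. None of the calls named here held without library 1, where P2ry12 had an adjusted p of 0.0611 in limma; Tmem119 was 1 of the 6 genes that stayed lower.

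Markers of other cells were compared as summed levels. The 10 further border macrophage markers summed to 654 and 680 CPM in the Spp1 and Gpnmb cells of libraries 1 and 2, against 513, 427 and 527 CPM in non-dividing microglia and 2237, 1812 and 5994 CPM in border macrophages, with Cd163, Cbr2 and Cd209f at 0. Of these 10, Folr2 and Stab1 were higher and none was lower against non-dividing microglia, with a median log2 fold of 0.54 beside -0.31 over all genes. Folr2 averaged 187 and 234 CPM against 28.1, 22.2 and 14.4 CPM. Monocyte and dendritic cell markers summed to 0 and 14.6 CPM, with 9 of 12 at 0, Ccr2 and Ly6c2 among them. Of 10 genes of glia that express pigment-cell genes, where Gpnmb is also known, Dct, Tyrp1, Mlana and Ptgds were at 0. Astrocyte markers summed to 123 and 543 CPM, against 718, 1094 and 783 CPM in non-dividing microglia. Vascular and fibroblast markers were higher in library 2 than in library 1: endothelial markers summed to 20.4 and 326 CPM against 241, 93.4 and 118 CPM in non-dividing microglia, mural markers to 105 and 411 CPM against 109, 255 and 645 CPM, and fibroblast markers to 0 and 249.9 CPM against 19.4, 35.4 and 50.9 CPM. The part of these transcripts in the results was not tested.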

How the data were processed

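The deposited table held 1 value per gene and cell for 20368 genes and 14192 cells. The submitters' processing notes name CASAVA 1.8 along with Cell Ranger, Seurat and the mouse build mm10. The authors' deposited values were in natural log units: each equals ln(1 + a whole number), within a tolerance of 1e-10, and those whole numbers summed to 4422 to 8135 per cell. They are read as counts corrected for depth by a method not given in the sources used here, so no count model was fitted.

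Cells were scaled to CPM and averaged by population within a library, where at least 10 cells were present. With 10 CPM added, the log2 means entered limma 3.58.1 (R 4.3.3; trended prior variance), library being a block; 11 values left 5 residual degrees of freedom. The test covered 8169 genes whose mean reached 10 CPM, not counting the 19 that chose the populations, under Benjamini-Hochberg adjustment across them and a threshold of 0.05. The steps were tested on simulated data. The library number marks the same library in every population, so the block pairs cells of the same library. Doublets were called with Scrublet in scanpy 1.11.5 and left in. A value of 0 allows 3 counts of a library's total, and intervals are exact Clopper-Pearson at 95%; both cover counting error only.

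The text names, from each of 14 gene lists, up to 3 genes of largest fold past the threshold with the same sign in both libraries, the 10 largest in each direction, and the rule and marker genes; other named genes were chosen after their values were seen. Genes can be on more than 1 list. Lists were 519 genes, 516 in the table. The cells, lists and tests were chosen with earlier results of these data known. Alternatives changed the pseudocount, filter, scaling, block, cell minimum, doublets, thresholds of the rule and libraries. Leaving out border macrophages with both genes, and values not rescaled, were added after the data had been seen. Coordinates and promoters are from GRCm38. Some genes are not reported here.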

Additional observations from a re-analysis of the deposited data

How the results depend on the processing

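The mean share of Spp1 and Gpnmb cells, 0.659%, ran from 0.190% to 0.977% when 1 library was left out and was 0.533% with at least 2 counts of both genes; the SD between libraries exceeds the mean, so this says nothing about stability. The count against non-dividing microglia, 2071 genes, ranged from 482 to 2546 when 1 library was left out, and was 914 with at least 20 cells per population and library, which removes the library 1 value of these cells. Against border macrophages the 1682 genes ranged from 6 to 2663 with 1 library left out and were 1004 with no filter on low values, 1047 with a mean of at least 50 CPM, 1053 on centred values and 475 with at least 20 cells. Against dividing microglia the 2981 genes ranged from 1215 to 3184, and were 1589 with a mean of at least 50 CPM and 1611 with at least 20 cells. Without library as a replicate block the counts were 2285, 1924 and 3091, and none of the 50 genes chosen by the naming rule and tested lost its call.

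Of those 50 genes, 18 lost their call without library 1, 3 without library 2 and 1 without library 3, and further genes in the text lost theirs, as given there; in these fits a population with a lone library is assumed to vary like the others. Taking dividing cells out reversed Ube2c to -0.81 (limma, adjusted p = 0.0327); the cause was not tested. The 17 cells of library 1 hold 103464 corrected counts, where 3 counts are 29.0 CPM, so a level below that rests on about 3 counts or fewer there.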
